A study of Mus musculus with 9 samples.

Results

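The genes described here were 5 transcripts used to recognise olfactory ensheathing glia and Schwann glia, namely Sox10, Fabp7, S100b, Npy and Frzb. They were taken by symbol from a gene table of RNA sequencing of the mouse main olfactory epithelium, in which all 5 were found among 55291 genes. All 5 passed the filter of at least 10 counts summed over the mice and so belonged to the 23225 genes tested. The libraries came from 9 C57BL/6 mice of 8 to 12 weeks, with 3 mice in each of 3 genotypes. The wild-type mice are described as littermate controls, and the sources used here do not say of which knockout line. Ms4a cluster knockout mice (Ms4a cluster-/-) lacked the whole chromosomal cluster of Ms4a genes, which encode membrane proteins proposed as receptors for odours, after CRISPR/Cas9 deletion. Ms4a6c knockout mice (Ms4a6c-/-) lacked 1 gene of that family and came from homologous recombination in a mouse knockout programme. The ends of the cluster deletion are not given in the sources used here. The comparison of each knockout with wild type asked what the loss of these receptors did to the epithelium, and here it was read for the glia genes. The same 3 wild-type mice served in both comparisons.

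Olfactory ensheathing glia wrap the bundled axons of olfactory sensory neurons from the lamina propria under the epithelium to the outer layer of the olfactory bulb. They descend from the neural crest, as Schwann cells do, and like immature or non-myelinating Schwann cells they keep axons in bundles without making myelin around them. Sox10 is the SOX transcription factor that neural crest cells need to become glia, and it stays on in ensheathing and Schwann glia. Fabp7 (brain lipid-binding protein) is a fatty acid carrier of glial precursors, radial glia and ensheathing glia. S100b is a calcium-binding protein of astrocytes, Schwann cells and ensheathing glia. Npy (neuropeptide Y) is a secreted peptide made by many neurons and also by ensheathing glia of the inner nerve layer. Frzb is a secreted Frizzled-related protein that binds Wnt ligands and keeps them from their receptors. In whole tissue a lower or higher transcript level can come from the number of cells or from the RNA in each cell, and these cannot be told apart.

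The genes lie on 4 chromosomes of the mouse genome (GRCm38, GENCODE M21). Sox10 is at chr15:79154908-79165240 on the minus strand, Fabp7 at chr10:57784881-57788450 on the plus strand and S100b at chr10:76253853-76261159 on the plus strand. Npy is at chr6:49822710-49829507 on the plus strand and Frzb at chr2:80411970-80447625 on the minus strand. All 5 are protein-coding, and the values are for whole genes, summed over their exons. No other annotated transcript shared a stretch of at least 100 bases at 90% identity with them in the same orientation. Matches to the opposite strand were not searched. S100b overlaps Dip2a, which runs on the opposite strand. The sources used here do not say whether counting used strand, so reads of that overlap may have been counted for either gene. The other 4 overlap no annotated gene.

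The sequence before the start of 3 of these genes is shown for comparison. Npy and Fabp7 are the genes that had the highest correlations with Frzb over the mice, and S100b had the smallest spread. RefSeq promoters, which run from 250 bases before to 50 bases after the start (GRCm38.p6), were given for 4 of the 5 genes. The part before both the RefSeq and the GENCODE start is printed, 5′ to 3′ on the strand of the gene, with every match to a searched motif in capitals. Npy is chr6:49822460-49822709, Fabp7 is chr10:57784673-57784880 and S100b is chr10:76253586-76253835.
Npy: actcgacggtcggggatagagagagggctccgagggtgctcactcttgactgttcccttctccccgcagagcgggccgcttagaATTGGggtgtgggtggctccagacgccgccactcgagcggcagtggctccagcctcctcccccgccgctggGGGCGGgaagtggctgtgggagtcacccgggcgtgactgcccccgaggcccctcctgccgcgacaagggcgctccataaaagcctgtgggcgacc
Fabp7: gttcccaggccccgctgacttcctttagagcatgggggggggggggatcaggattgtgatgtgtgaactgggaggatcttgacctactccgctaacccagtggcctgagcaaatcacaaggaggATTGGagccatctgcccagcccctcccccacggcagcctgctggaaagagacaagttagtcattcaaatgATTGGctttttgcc
S100b: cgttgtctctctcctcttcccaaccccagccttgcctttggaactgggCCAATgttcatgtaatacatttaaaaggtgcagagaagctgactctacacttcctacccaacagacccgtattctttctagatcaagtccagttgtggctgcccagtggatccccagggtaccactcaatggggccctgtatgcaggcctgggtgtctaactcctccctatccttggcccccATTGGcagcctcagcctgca
For Frzb, 229 of the 250 bases before the RefSeq start lie inside the GENCODE gene, and that stretch is not printed. The motifs searched, on both strands, were the SOX core ACAAAG or ACAATG, the TCF/LEF core TCAAAG, the CCAAT box CCAAT, the GC box GGGCGG and the TATA box TATAAA. The SOX and TCF/LEF cores share the letters CAAAG, and no 2 matches in these windows overlapped. A SOX core was found in 28.6% of 32851 mouse promoters of this length and in 0 of these 4. The TCF/LEF core, the sequence bound by the nuclear partners of Wnt signalling, stood in the Frzb window from 95 to 90 bases before the start, and in 16% of all promoters. A CCAAT box stood in the Npy window once and in those of Fabp7 and S100b 2 times each, against 37.4% of promoters with at least 1. A GC box stood in the Npy and Frzb windows and in 35.7% of promoters. The TATA box letters were in none of the 4 windows and in 13.6% of promoters. Npy and Frzb windows held 24 and 20 CpG pairs, and those of Fabp7 and S100b held 6 and 3, with a median of 7 over all promoters. These matches are descriptions of the sequence and say nothing about binding.

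The libraries held between 13954591 and 21987174 expected counts. A level is given in CPM, the counts of a gene relative to the size of its library after TMM scaling in edgeR. The deletions were visible in every library: Ms4a6c ran from 3.84 to 4.99 CPM in wild type, was listed at 0 in the Ms4a cluster knockouts and reached at most 0.127 CPM in the Ms4a6c knockouts. All 21 Ms4a genes of the table were listed at 0 in the Ms4a cluster knockouts. Markers of mature olfactory sensory neurons summed to between 11340 and 14320 CPM. In wild-type mouse 1 and Ms4a cluster knockout mouse 2, 11 genes of the nasal and Bowman glands summed to 335700 and 348200 CPM, against 1997 to 34740 CPM in the other mice. A further list of 7 genes known from neurons and astrocytes of the olfactory bulb, chosen after the values were seen, summed to 117 CPM in Ms4a cluster knockout mouse 2. It summed to 28.1 CPM in Ms4a6c knockout mouse 1, to 20.1 CPM in wild-type mouse 3 and to between 4.27 and 8.17 CPM in the others. Fold changes are given below with these libraries and, where they move by over 1.5 times, without them.

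Per kilobase of the longest listed transcript, the order of the mean levels over the 9 mice was Fabp7, S100b, Sox10, Npy and Frzb, and each mouse showed this order. Fabp7 was at 108 ± 15.6 CPM per kilobase (SD, n = 9), S100b at 31.5 ± 2.97, Sox10 at 11.2 ± 3.01, Npy at 4.89 ± 2.79 and Frzb at 2.92 ± 1.3. Fabp7 and S100b did not overlap over the mice, nor did S100b and Sox10. Sox10 and Npy overlapped between mice, since the highest Npy (11.6 CPM per kilobase) lay above the lowest Sox10 (7.62), and Npy and Frzb overlapped as well. Within a mouse the Npy to Frzb ratio ran from 1.14 to 2.35. Npy and Frzb were measured on few counts, 25 to 74 for Npy and 74 to 360 for Frzb, whereas the other 3 genes had at least 382 counts in every mouse.

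The spread over mice differed between the genes. The coefficient of variation of CPM was 57.0% for Npy, 44.6% for Frzb, 26.9% for Sox10, 14.5% for Fabp7 and 9.42% for S100b. Over the 16537 tested genes with a mean of at least 1 CPM the median was 10.8%. Npy and Frzb were thus more variable than 97.4% and 96.0% of those genes, and S100b than 42.1%. Without Ms4a cluster knockout mouse 2 the Npy value was 31.1%, above 91.9% of genes, and that of Frzb 41.2%, above 95.7%. Within wild type the Npy value was 6.15% (n = 3), but 3 mice with 25 to 29 counts each do not give a firm estimate of spread. The ranking was not matched for level, and low counts add spread of their own.

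**Figure D1:**
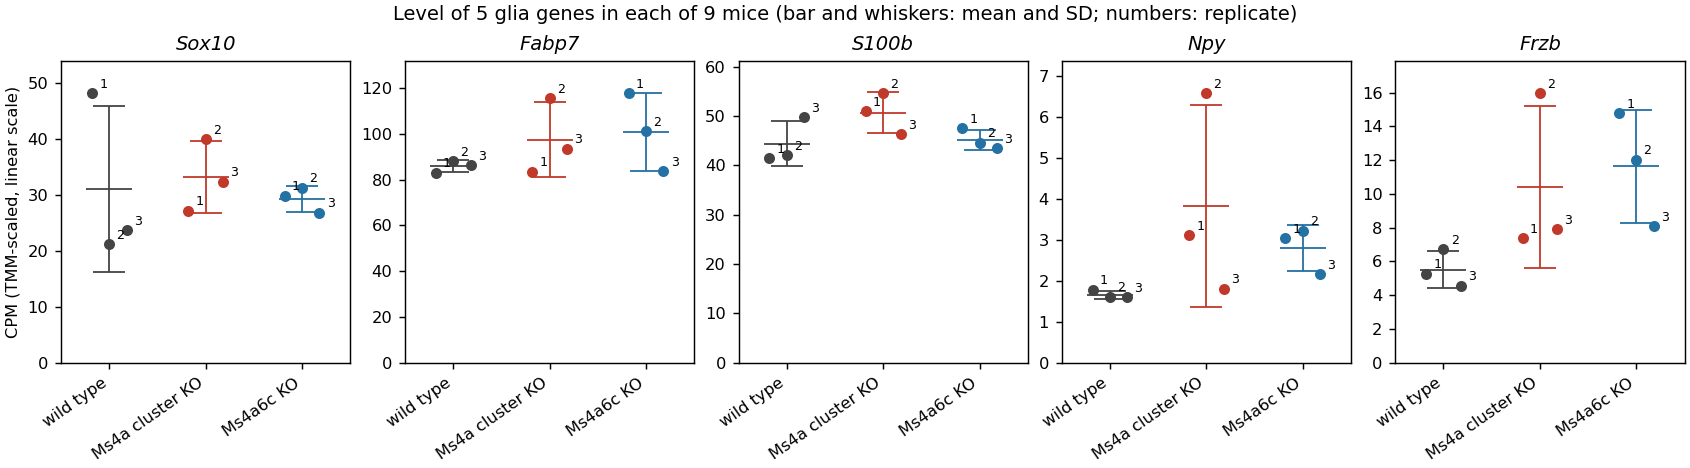
CPM of Sox10, Fabp7, S100b, Npy and Frzb on linear axes from 0, with 1 point per mouse numbered by replicate and the mean and SD of each genotype (n = 3). All 6 knockout mice lie above the 3 wild-type mice for Npy and Frzb, while the genotypes overlap for Sox10, Fabp7 and S100b.

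Sox10, the SOX transcription factor, did not separate the genotypes. Wild-type mice 1, 2 and 3 had 48.1, 21.2 and 23.7 CPM. The Ms4a cluster knockouts had 27.2, 39.97 and 32.3 CPM in the same order of replicates, and the Ms4a6c knockouts had 29.8, 31.3 and 26.8 CPM. The 2 highest values belonged to the 2 gland-rich libraries, and the wild-type range enclosed all 6 knockout values. The log2 fold change was 0.10 ± 0.27 (SE) for the Ms4a cluster knockout against wild type (adjusted p = 1.0) and -0.08 ± 0.27 for the Ms4a6c knockout (adjusted p = 0.952). Wild-type mouse 1 decided these values. This mouse was singled out after the values were seen. Without it the log2 fold changes became 0.55 ± 0.15 (adjusted p = 0.541) and 0.38 ± 0.15 (adjusted p = 0.352). Without both gland-rich libraries they were 0.41 ± 0.11 (adjusted p = 0.387) and 0.39 ± 0.10 (adjusted p = 0.114).

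Fabp7, the fatty acid carrier, was the most abundant of the 5. It was 83.0, 88.0 and 86.4 CPM in wild type, 83.4, 116 and 93.5 CPM in the Ms4a cluster knockouts and 118, 101 and 83.7 CPM in the Ms4a6c knockouts. One mouse of each knockout lay within the wild-type range and the other 2 of each above it. The log2 fold change was 0.18 ± 0.13 for the Ms4a cluster knockout (95% interval -0.12 to 0.48, adjusted p = 0.971) and 0.23 ± 0.13 for the Ms4a6c knockout (-0.06 to 0.53, adjusted p = 0.571). Changes of more than 1.45-fold upward lay outside both intervals. Single libraries carried much of both values. The first was 0.04 without Ms4a cluster knockout mouse 2, 0.02 without both gland-rich libraries and 0.04 without both libraries highest in bulb transcripts. The second was 0.11 without Ms4a6c knockout mouse 1 and 0.11 without both libraries highest in bulb transcripts.

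S100b, the calcium-binding protein, was the steadiest. It was 41.5, 42.1 and 49.8 CPM in wild type, 51.1, 54.6 and 46.4 CPM in the Ms4a cluster knockouts and 47.5, 44.6 and 43.5 CPM in the Ms4a6c knockouts. The groups overlapped, with 2 of the Ms4a cluster knockouts above every wild-type mouse. The log2 fold change was 0.19 ± 0.09 for the Ms4a cluster knockout (adjusted p = 0.968) and 0.02 ± 0.09 for the Ms4a6c knockout (adjusted p = 0.952). Intervals reached 1.3-fold and 1.16-fold upward. The first value was 0.08 without both gland-rich libraries and 0.28 without wild-type mouse 3, and the second lay between -0.02 and 0.11 when single mice were left out.

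Npy, the secreted peptide, was 1.78, 1.61 and 1.59 CPM in wild type. It was 3.11, 6.58 and 1.80 CPM in the Ms4a cluster knockouts and 3.03, 3.23 and 2.17 CPM in the Ms4a6c knockouts. All 6 knockout values lay above all 3 wild-type values, the closest being 1.80 CPM in Ms4a cluster knockout mouse 3 beside 1.78 CPM in wild-type mouse 1. The log2 fold change was 1.16 ± 0.41 for the Ms4a cluster knockout, or 2.23-fold (95% interval 1.19 to 4.21), with an unadjusted p of 0.0179 and an adjusted p of 0.968 in edgeR. For the Ms4a6c knockout it was 0.76 ± 0.41, or 1.70-fold (0.903 to 3.19), with an adjusted p of 0.549. Without Ms4a cluster knockout mouse 2, the library with the most gland and bulb transcripts, the first value fell to 0.57, and it was 0.61 without both gland-rich libraries and 0.56 without both libraries highest in bulb transcripts.

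Frzb, the Wnt-binding protein, was 5.26, 6.71 and 4.55 CPM in wild type. It was 7.36, 15.95 and 7.92 CPM in the Ms4a cluster knockouts and 14.8, 12.0 and 8.09 CPM in the Ms4a6c knockouts. Again all 6 knockout mice lay above all 3 wild-type mice. The log2 fold change was 1.08 ± 0.32 for the Ms4a6c knockout, or 2.12-fold (1.3 to 3.45), with an unadjusted p of 0.00664 and an adjusted p of 0.247. It was 0.89 ± 0.32 for the Ms4a cluster knockout, or 1.85-fold (1.13 to 3.04), with an adjusted p of 0.968. The Ms4a cluster value fell to 0.47 without Ms4a cluster knockout mouse 2, to 0.44 without both gland-rich libraries and was 0.47 without that mouse and Ms4a6c knockout mouse 1, the 2 libraries highest in bulb transcripts. The Ms4a6c value was 0.87 without these 2 libraries and 1.06 without both gland-rich libraries.

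No member passed an adjusted p under 0.05 in edgeR. The share of all tested genes that did was 0.0258% for the Ms4a cluster knockout against wild type, 0.435% for the Ms4a6c knockout against wild type and 0.443% between the knockouts. At an unadjusted p under 0.05 there were 2 of 5 members in the first comparison, where 4.93% of all genes reached it, 1 of 5 in the second, where 10.5% did, and 0 of 5 in the third, where 9.38% did. All 3 knockout mice lay above all 3 wild-type mice for 2 of the 5 members in each knockout, against 4.71% of tested genes for the Ms4a cluster knockout and 9.71% for the Ms4a6c knockout. Between the knockouts, no member had all Ms4a cluster knockout mice above all Ms4a6c knockout mice, as 7.86% of tested genes did. Npy and Frzb were the 2 members with all 6 knockout mice above wild type, a pattern held by 1.68% of tested genes. The 5 genes were chosen with earlier results of these data known, so these shares are not a fair background for them. DESeq2, run as the other count test, called 1 member, Frzb in the Ms4a6c knockout (log2 fold change 1.08, adjusted p = 0.045), where it called 1.48% of all genes.

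A contrast of the 6 knockout mice together with wild type, added after the values were seen, gave Frzb 0.99 ± 0.28 (unadjusted p = 0.00473) and Npy 0.97 ± 0.37 (0.0235), both with an adjusted p of 0.747. In that contrast 0.00431% of tested genes passed. Fabp7 was 0.21 ± 0.11, S100b 0.11 ± 0.09 and Sox10 0.01 ± 0.23. The median log2 fold change of the 5 members was 0.19 in the Ms4a cluster knockout and 0.23 in the Ms4a6c knockout, against 0.007 and -0.002 over all tested genes.

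**Figure D2:**
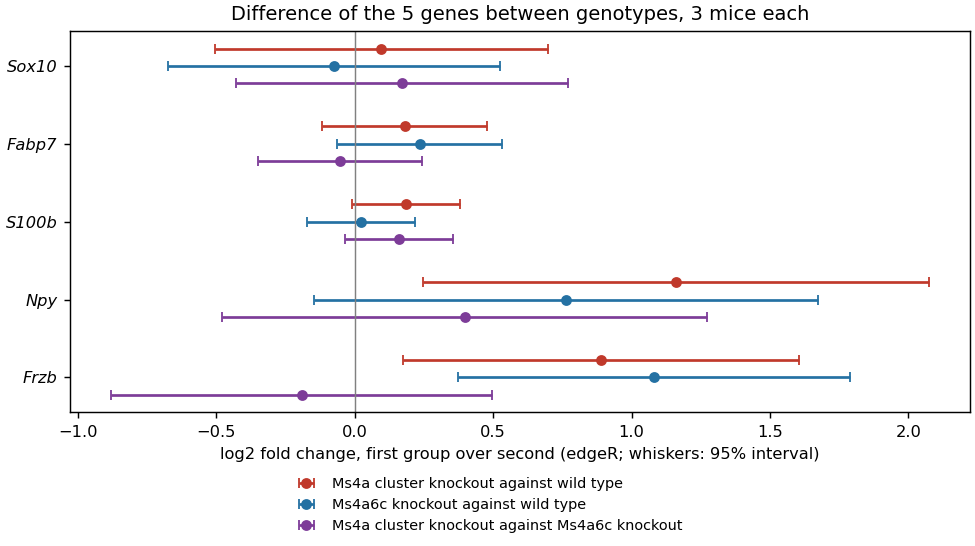
Log2 fold change (edgeR, 95% interval) of each gene for the Ms4a cluster knockout against wild type, the Ms4a6c knockout against wild type and the Ms4a cluster against the Ms4a6c knockout, with 3 mice per group. The Frzb intervals of both comparisons with wild type and the Npy interval of the first lie above 0, and every interval between the knockouts spans 0.

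The 2 knockouts were also set against each other, which asks whether losing the cluster differed from losing Ms4a6c alone. The log2 fold change, Ms4a cluster over Ms4a6c knockout, was 0.17 ± 0.27 for Sox10, -0.05 ± 0.13 for Fabp7, 0.16 ± 0.09 for S100b, 0.40 ± 0.39 for Npy and -0.19 ± 0.31 for Frzb. Adjusted p-values ran from 0.607 to 0.939. Without both gland-rich libraries the Sox10, Fabp7, S100b and Npy values were 0.02, -0.19, 0.10 and -0.20. Without both libraries highest in bulb transcripts they were 0.03, -0.07, 0.14 and -0.14, so that the Npy value changed sign in both cases. With single mice left out the Frzb value lay between -0.61 and 0.02. The intervals for Npy (0.718-fold to 2.42-fold) and Frzb (0.543-fold to 1.41-fold) spanned no difference, and differences of the sizes between their ends were not told apart from it.

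The 5 genes were next compared with each other over the 9 mice, since markers of 1 cell type can rise and fall together with the amount of that cell type in a dissection. Pearson's r was taken on log2(CPM + 0.5) for the 10 pairs, with a two-sided exact permutation p adjusted over the 10. All 10 r were above 0, with a median of 0.42. Fabp7 and Frzb correlated most, with r = 0.90 (exact permutation p = 0.00145, adjusted p = 0.0124) and Spearman's rho = 0.75 (adjusted p = 0.127). The 3 mice highest in Frzb, Ms4a cluster knockout mouse 2 and Ms4a6c knockout mice 1 and 2, were the 3 highest in Fabp7. Without the 2 mice farthest from the median Fabp7, which are the first 2 of these, r was 0.71 (exact permutation p = 0.0853), and the pair no longer passed. With single mice left out r lay between 0.85 and 0.94, and the pair did not pass without Ms4a cluster knockout mouse 2 (adjusted p = 0.0632) or Ms4a6c knockout mouse 2 (adjusted p = 0.0649), both by exact permutation. Between deviations from the genotype means r was 0.92 (exact permutation p = 0.0139, adjusted p = 0.139).

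Npy and Frzb followed, with r = 0.83 (exact permutation p = 0.00248, adjusted p = 0.0124) and rho = 0.85 (adjusted p = 0.0607). Without the 2 mice farthest from the median Npy, Ms4a cluster knockout mouse 2 and Ms4a6c knockout mouse 2, r was 0.71 (exact permutation p = 0.0665). Within genotypes r was 0.79 (exact permutation p = 0.088). Fabp7 with Npy (r = 0.71) and S100b with Npy (r = 0.68) did not pass, each with an adjusted p of 0.0958. Their rho values were 0.45 and 0.48, and r fell to 0.33 and 0.26 without the 2 mice farthest from the median. The remaining S100b pairs gave 0.45 with Fabp7 and 0.39 with Frzb.

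Sox10 stood apart from the other 4, with r from 0.04 with S100b to 0.38 with Npy. Its 2 farthest mice were wild-type mice 1 and 2. Without them r rose to 0.73 with Fabp7, 0.78 with Npy and 0.80 with Frzb, and the adjusted p was 0.166 for each. The number of pairs passing was 2 over all mice, 0 without both gland-rich libraries and 0 without both libraries highest in bulb transcripts. In the last case r was 0.71 for Fabp7 with Frzb and 0.73 for Npy with Frzb, while every pair with Sox10 lay between -0.34 and 0.08.

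**Figure D3:**
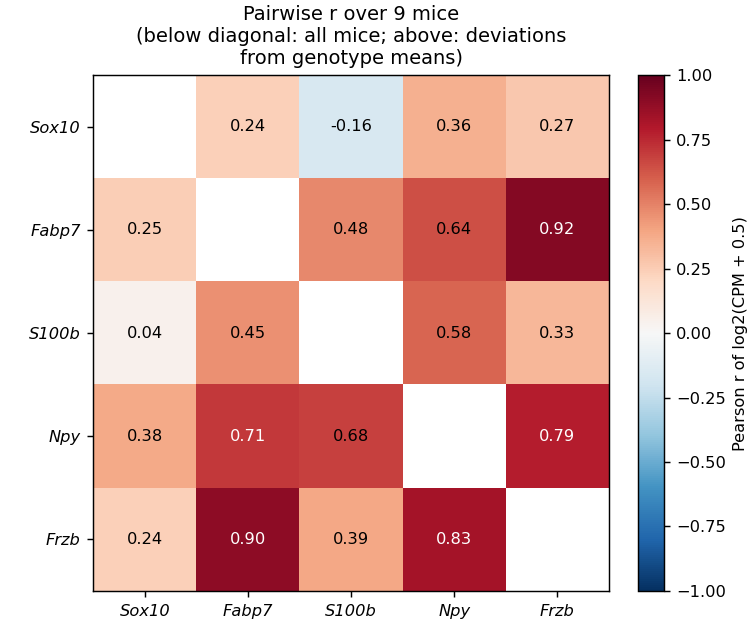
Pearson's r of log2(CPM + 0.5) for each pair of the 5 genes over 9 mice (below the diagonal) and between deviations from genotype means (above). The pairs among Fabp7, Npy and Frzb have the highest values, 0.71 to 0.90 over all mice, with S100b and Npy close behind at 0.68. Fabp7 with Npy and S100b with Npy did not pass an adjusted p under 0.05 by exact permutation. Sox10 has the lowest values.

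**Figure D4:**
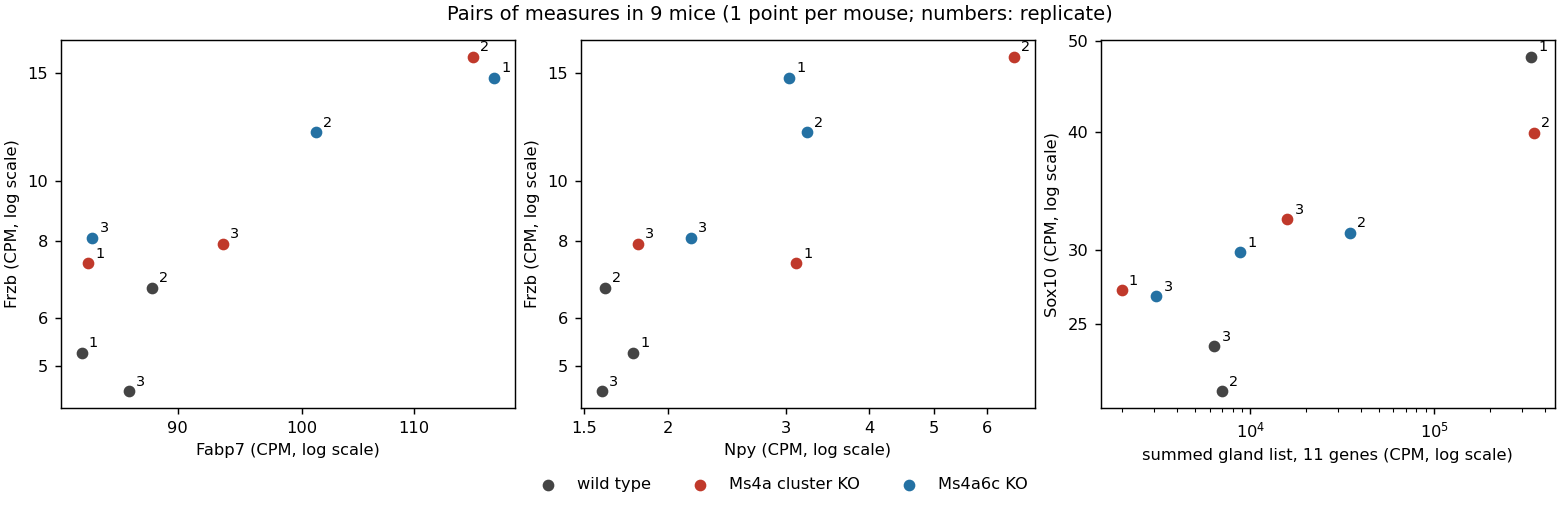
Frzb against Fabp7, Frzb against Npy and Sox10 against the summed level of 11 gland genes, in CPM on log axes, with 1 point per mouse coloured by genotype and numbered by replicate. Frzb rises with both genes, and the 2 highest Sox10 values, 48.1 and 39.97 CPM, are those of the 2 gland-rich libraries.

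The summed level of each of 23 marker lists was compared with each of the 5 genes, 115 relations in all, and no Pearson's r passed an adjusted p under 0.05. Sox10 had r = 0.86 with the gland list (exact permutation p = 0.00441, adjusted p = 0.253) and rho = 0.80. Without the 2 gland-rich libraries r was 0.47 (exact permutation p = 0.286), so the relation rests on those 2 mice. Sox9, a relative of Sox10 that Bowman's glands express, belongs to that list and was 22.2 and 26.3 CPM in the 2 gland-rich libraries against 14.8 to 16.9 CPM elsewhere. Whether gland cells contributed to the Sox10 level was not tested. Npy ran against the list of endothelial and mural genes, with r = -0.93 (exact permutation p = 0.000435, adjusted p = 0.0501) and rho = -0.95 (adjusted p = 0.0406). Without the 2 mice farthest from the median of that list r was -0.82 (exact permutation p = 0.0123). This list itself summed to 953 to 998 CPM in wild type, 797 to 951 in the Ms4a cluster knockouts and 900 to 929 in the Ms4a6c knockouts. The pooled r thus includes a difference between wild type and knockouts, and r within genotypes was not taken for the lists.

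Most transcripts of the lists for ensheathing and Schwann glia were found in the samples, but which cells made them was not tested. Of 25 ensheathing and peripheral glia genes, all 25 were tested, and they summed to 1045 to 1108 CPM in wild type, 1158 to 1309 in the Ms4a cluster knockouts and 1106 to 1300 in the Ms4a6c knockouts. Apod alone gave 464 to 676 CPM of these sums, while Prss56 of the same list had at most 7 counts in any mouse. Erbb3, the neuregulin receptor of the glial lineage, ran from 72.8 to 87.3 CPM. Of 18 myelin and Schwann cell genes 17 were tested, and they summed to 246 to 313 CPM over all mice. Pou3f1, the factor of promyelinating Schwann cells, and Pmp2 had 3 counts or fewer in every mouse.

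Genes listed for other cells that can use some of these 5 genes ranged, as sums, from near 0 to above the myelin list. Of 6 melanocyte genes, which belong to another Sox10-positive lineage, Dct had 3 counts or fewer in every mouse, Pmel was at most 0.702 CPM and the sum was 6.58 to 8.10 CPM. Of 6 genes of sympathetic and GnRH neurons, the former of which also make Npy, Dbh and Phox2a had 3 counts or fewer in every mouse. Their sum was 7.28 CPM in Ms4a cluster knockout mouse 2, 4.55 in Ms4a6c knockout mouse 1 and 1.11 to 2.23 elsewhere. Th, the enzyme of dopamine synthesis, made up most of the 2 high sums, at 6.88 and 2.95 CPM. Of 8 central glia genes, Opalin had 3 counts or fewer in every mouse, and the sum was 529 to 678 CPM. Aqp4, a water channel known from astrocytes, made up 321 to 441 CPM of it, and Slc1a2 a further 95.7 to 127 CPM. The sum was lowest, 529 CPM, in Ms4a cluster knockout mouse 2, the library with the most bulb transcripts. Gfap, an astrocyte filament gene outside this list, was highest in that same mouse, at 25.1 CPM. Which cells made the Aqp4 transcript was not tested.

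Both libraries highest in bulb transcripts were high in Npy and Frzb. Gad1, the enzyme that makes GABA, was 37.9 CPM in Ms4a cluster knockout mouse 2 and 7.34 CPM in Ms4a6c knockout mouse 1. It was 6.26 CPM in wild-type mouse 3, which had the lowest Frzb of all mice, and at most 1.55 CPM in the other 6. Gfap, the filament protein of astrocytes and some ensheathing glia, was 25.1, 8.32 and 4.72 CPM in these 3 mice. Ms4a6c knockout mouse 2 had the third highest Frzb (12.0 CPM) with a bulb list of 6.14 CPM. Ms4a cluster knockout mouse 2 was also one of the gland-rich libraries. Whether bulb tissue contributed to the Npy and Frzb levels was not tested. The fold changes without both libraries highest in bulb transcripts are those given above.

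**Figure D5:**
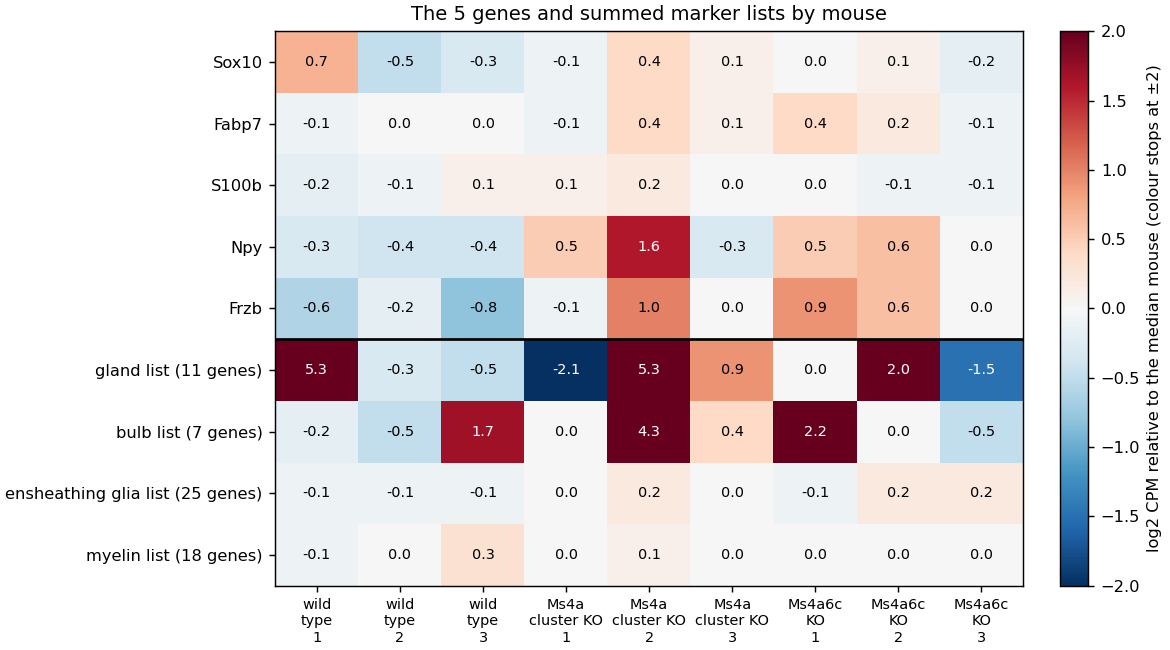
Log2 CPM relative to the median mouse for the 5 genes and the sums of 4 marker lists, by mouse. Frzb and Fabp7 are highest in Ms4a cluster knockout mouse 2 and Ms4a6c knockout mice 1 and 2, Npy is high in these and in Ms4a cluster knockout mouse 1, and the gland list is highest in wild-type mouse 1 and Ms4a cluster knockout mouse 2.

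No gene of the 2 glia lists passed an adjusted p under 0.05 in any comparison in edgeR. Of the 42 tested, 3 reached an unadjusted p under 0.05 when the Ms4a cluster knockout was compared with wild type, 8 when the Ms4a6c knockout was, and 3 between the knockouts. The shares of all tested genes that reached it were 4.93%, 10.5% and 9.38%. The ensheathing list had a median log2 fold change of 0.20 in the Ms4a cluster knockout, with 21 of 25 genes above 0, and of 0.27 in the Ms4a6c knockout, with 17 of 25 above 0. The myelin list had medians of -0.07 and -0.20, with 3 and 6 of 17 above 0. Over all tested genes 51.7% and 49.7% were above 0. The lists, too, were chosen with earlier results of these data known. Apod, a lipid carrier and the most abundant ensheathing gene, had log2 fold changes of 0.15 ± 0.12 and 0.28 ± 0.12. Among the myelin genes, Gldn, a protein of the nodes of Ranvier, was -0.07 ± 0.06 and 0.05 ± 0.06, and Mal, a myelin proteolipid, was -0.04 ± 0.09 and 0.21 ± 0.09.

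The relatives of each member showed no called gene either. Of 8 SoxE, SoxD and SoxB1 factors 7 were tested and 0 were called, and the most abundant were Sox2 (70.7 to 88.2 CPM), a factor of supporting and basal cells, and Sox13 (30.0 to 41.8 CPM). Of 9 other fatty acid binding protein genes 4 were tested and 0 called. Fabp5 was the highest of them at 7.96 to 12.1 CPM, and Fabp3, with log2 fold changes of 0.95 ± 0.39 and 0.23 ± 0.40, was next. Of 16 S100 genes with the receptor Ager, 16 were tested and 0 called, with S100a5, a marker of olfactory sensory neurons, at 578 to 914 CPM and S100a1 at 132 to 164 CPM. Of 11 genes of Npy relatives, receptors and processing enzymes 7 were tested and 0 called. The receptor genes Npy4r, Npy5r and Npy6r had 3 counts or fewer in every mouse, while the processing enzymes Cpe (338 to 439 CPM) and Pam (104 to 118 CPM) were abundant.

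For Frzb, the Wnt pathway was read in order. Of 19 ligands 15 were tested and 0 called, led by Wnt7b (28.7 to 34.6 CPM) and Wnt4 (13.2 to 24.1 CPM). Of 15 other antagonists 14 were tested and 0 called. Sfrp1, of the same Frizzled-related family, was 82.6 to 116 CPM with log2 fold changes of -0.01 ± 0.07 in the Ms4a cluster knockout and 0.26 ± 0.07 in the Ms4a6c knockout (adjusted p = 1.0 and 0.226). Sfrp2 was 0.17 ± 0.07 in both (adjusted p = 0.968 and 0.46). Of 20 receptors, effectors and targets 20 were tested and 0 called, including the effector Ctnnb1 (590 to 646 CPM) and the receptor Fzd3 (71.1 to 102 CPM). Of 8 neuregulin and ErbB genes, the axon-to-glia signal that sets Schwann cell number, 7 were tested and 0 called, with Erbb3 at -0.03 ± 0.07 and 0.03 ± 0.07. In the remaining lists of other cell types the single called gene was Gng13, a G protein subunit of sensory neurons, at -0.89 ± 0.09 in the Ms4a6c knockout (adjusted p = 0.00121) and 0.95 ± 0.09 between the Ms4a cluster and Ms4a6c knockouts (adjusted p = 0.00073).

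The genes whose pattern over the 9 mice was most like that of each member were ranked by Pearson's r among 16532 tested genes with a mean of at least 1 CPM, as a description. The points share library, dissection and depth. Nearest to Frzb were Vtn (r = 0.98), Grik3 (0.97), Clca3a1 (0.97), Mmd2 (0.96) and Tmem132b (0.96). Nearest to Fabp7 were Cdh6 (0.95), Vtn (0.95), Kctd11 (0.94), Rfesd (0.94) and Grik3 (0.93), so that Vtn, the matrix protein vitronectin, and Grik3, a kainate receptor subunit, stood in both lists. Cmtm5, of the myelin list, was ranked 7 for Frzb (r = 0.94). Vtn ran from 2.39 to 13.8 CPM and Grik3 from 6.60 to 13.5 CPM.

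Nearest to Npy were Pld5 (0.96), Cdkn2c (0.95), Gpr37l1 (0.93), Gjb6 (0.92) and Mrpl45 (0.92), of which Gpr37l1, a glial receptor, belongs to the ensheathing list. Among the 5 nearest to S100b were 0610009B22Rik, Fxyd1, Gprasp2 and B3galnt1, all at 0.92. Nearest to Sox10 were Gorasp1 (0.99), Fpgs (0.98), Tpd52l1 (0.98), Eif4g1 (0.97) and Uqcr11 (0.97), none of them in a glia list, and its nearest glia gene Cnp was ranked 810 (r = 0.77). The median r with the ensheathing genes of at least 1 CPM was 0.43 for Frzb, 0.32 for Fabp7, 0.32 for Npy, 0.29 for S100b and 0.03 for Sox10, and with the myelin genes -0.23, -0.23, -0.21, 0.07 and -0.18. Over all ranked genes the median lay between -0.04 and 0. For the mean of the 5 standardised genes, the 10 nearest included Tnfsf13 (0.95), Cacng7, Lcat, Grik3, Pld5, Sparcl1, Vps36, Golga7 and Pdia4 (0.92).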

How the data were processed

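RNA from the main olfactory epithelium of 9 mice was made into directional poly(A) libraries and sequenced as paired ends. Per the labels, the authors aligned reads with STAR 2.6.1, and the deposited expected counts per gene are estimates from RSEM 1.3.1 on GENCODE M25 (mm10). The table held no other per-mouse columns. Expected counts were rounded, genes with at least 10 counts over the 9 mice were kept, libraries were scaled by TMM, and edgeR 4.0.16 (R 4.3.3) quasi-likelihood tests were fitted in one model of 3 genotypes, with Benjamini-Hochberg adjustment over 23225 genes and a threshold of 0.05. The fit was tested on simulated data. Standard errors are the log2 fold change over the root of F. Correlations used scipy 1.17.1 and exact permutations. Copies were searched with blast 2.17.0. The p-values measure the spread between mice. DESeq2 1.42.0, other scalings and filters, covariates and left-out mice were alternatives. The labels do not give the sex of each mouse, and Xist served as a covariate for it. Xist was at most 2.61 CPM in wild-type mouse 1, Ms4a cluster knockout mouse 3 and Ms4a6c knockout mice 2 and 3. It was 247 to 366 CPM in the others. With this covariate the log2 fold change of Sox10 was 0.20 in the Ms4a cluster knockout and -0.10 in the Ms4a6c knockout. Genes named besides the 5 were, per list, up to 3 called genes by adjusted p, or else the 2 most abundant, and the 5 or 10 most like in pattern. The other glia genes, low-count genes and single mice named were chosen after their values were seen. The 5 genes and the lists were chosen with earlier results of these data known. Replicate numbers are not stated to mark litters, and same-numbered mice did not deviate together, so no pairing was used. A few genes that these rules name are not reported here.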

Additional observations from a re-analysis of the deposited data

How the results depend on the processing

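In edgeR, no member was called under any alternative scaling, filter, covariate or left-out mouse, the counts being 0 to 0 when each mouse was left out. DESeq2 called 1 member (Frzb) and 1 other glia gene in the Ms4a6c knockout, and 1 glia gene was called there with the gland list as a covariate and 1 without both gland-rich libraries. With the replicate number as a block 0 members and 0 glia genes were called in each comparison. The numbers did not pair the mice (correlations of deviations from -0.58 to 0.12), and the block took the calls over all genes from 6, 101 and 103 to 2, 71 and 75, where DESeq2 gave 18, 343 and 271. Of 270 alternative log2 fold changes of the members, 22 had the opposite sign, each of a value not called. For Sox10 they came to -0.05 (Ms4a cluster knockout, without both bulb-transcript libraries), to 0.21, 0.16 and 0.39 (Ms4a6c knockout, with plain library size, the gland covariate and without the gland-rich libraries) and to -0.04 between knockouts with plain library size. S100b came to -0.02 and -0.01 in the Ms4a6c knockout without the gland-rich and the bulb-transcript libraries, and to -0.03 between knockouts with plain library size. Npy between knockouts came to -0.20 and -0.14 without the same pairs of libraries. Leaving out each mouse gave Sox10 -0.12 to 0.55 and -0.29 to 0.38 in the 2 knockouts, S100b -0.02 to 0.11 in the Ms4a6c knockout and, between knockouts, Fabp7 -0.19 to 0.07, Npy -0.20 to 0.75 and Frzb -0.61 to 0.02. The pairs of members passing numbered 2, but 0 with plain library size, Spearman's rho, deviations from genotype means, without both gland-rich or both bulb-transcript libraries and without the 2 farthest mice, and 0 to 3 when each mouse was left out, with 0 without Ms4a cluster knockout mouse 2 or Ms4a6c knockout mouse 2 and 1 without wild-type mouse 1. Opposite signs of r were Sox10 with S100b at -0.13 (plain library size), -0.16 (deviations), -0.34 (bulb-transcript libraries out) and -0.32 to 0.56 (single mice out). Without the bulb-transcript libraries Sox10 with Fabp7 and with Frzb came to -0.01 each, Fabp7 with S100b to -0.05 and S100b with Frzb to -0.12. Without the gland-rich libraries Fabp7 with S100b came to -0.02 and S100b with Frzb to -0.19, and without the 2 farthest mice to -0.05 and -0.19. The cause of these shifts was not tested. The 2 pairs of libraries left out were chosen after seeing the data. Npy was measured on at most 74 counts a mouse, which limits its precision.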
